A study of Mus musculus with 211 samples.

Results

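Among the single cells captured from the adult Lfng-EGFP mouse cochlea were cells without the genes of granulocyte precursors and without the genes of dividing cells, and these were compared between P60 and P120. The cells were selected on measured values. A cell was kept when it had 50000 or more reads on genes, fewer than 3 of the 7 precursor genes *Elane*, *Mpo*, *Prtn3*, *Ctsg*, *Ms4a3*, *Fcnb* and *Myb* at 10 or more reads, and fewer than 2 of the 5 cycling genes *Mki67*, *Top2a*, *Cdk1*, *Ccna2* and *Tpx2* at 10 or more reads. This left 98 of the 211 cells, 51 at P60 and 47 at P120. Of the rest, 47 cells had too few reads, 51 had 3 or more precursor genes and 15 had fewer precursor genes but 2 or more cycling genes. The rule used neither the age nor any gene outside these 12, so the age comparison of the other genes was not fixed by it, and the levels of the 12 genes are not given as results. Just inside the thresholds lay 6 cells with 2 precursor genes and 6 cells with 1 cycling gene, and just outside lay 12 cells with 3 precursor genes. The member with the fewest reads had 74846, and the deepest cell under the minimum had 43998.

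Both ages were CD1 mice of either sex that carried the BAC transgene Tg(Lfng-EGFP), in which regulatory sequence of *Lfng* drives EGFP, and the labels set the groups apart only by age. GFP-positive cells were sorted and captured on the Fluidigm C1, a microfluidic chip that prepares 1 full-length cDNA library per cell, and animals were pooled for each capture. The capture was therefore the replicate, and the reads of a capture's members were summed. The sources do not say whether captures of 1 age shared a dissection day, so p-values measure the spread between these captures. Captures with 3 or more members entered the comparison: 6 captures at P60 with 49 cells (9c, 19c, 20c, 21c, 31 and 40) and 4 captures at P120 with 47 cells (28, 32, 36 and 38). The other 2 members were the single ones of captures 10c and 17c. Captures 9c, 19c, 20c and 21c came from sequencing run S047, which held no P120 cell, whereas 31 and 40 shared run S059 with the P120 captures. Age and run can therefore be told apart only through captures 31 and 40, and values for the 6 S059 captures alone are given beside the main results. Summed reads ranged from 3721435 to 25102483 at P60 and from 9037275 to 16200546 at P120, and a member had between 74846 and 5361476 reads.

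Neutrophils arise in the bone marrow from precursors that divide and fill their primary granules with elastase, myeloperoxidase and related proteases. As they mature they leave the cell cycle, make the proteins of the specific and then of the gelatinase granules, and take up the chemokine and growth factor receptors of circulating cells. Supporting cells of the organ of Corti are epithelial cells around the hair cells, and contribute proteins of the tectorial membrane such as otogelin and the tectorins.

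The labels called the sorted cells adult cochlear supporting cells, but the markers of these members pointed mostly elsewhere. At least 3 of 10 general leukocyte genes reached 10 reads in 94 of the 96 cells compared, and at least 3 of 10 neutrophil genes did so in the same number. *S100a9* alone took 6.69% of all members' reads, *Actb* took 6.40%, *S100a8* took 4.35% and *Ngp* took 3.07%. At least 3 of 15 supporting cell genes reached 10 reads in only 3 cells, of which 2 were in capture 21c at P60 and 1 was in capture 28 at P120. The 2 cells of capture 21c were the ones without the leukocyte and neutrophil genes, and they held 56035 of the 71463 reads of the supporting cell list. One of them had 20113 reads of *Tectb* and 6910 of *Slc1a3*, and the other had 19979 reads of *Otog* and 4909 of *Slc1a3*. The cell of capture 28 had 1040 reads of *Otog* and 991 of *Coch* beside 227377 reads of *S100a8*. The cells are therefore called here by their rule, or neutrophil-like for the 94.

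Capture 21c stood apart from the other captures. Its supporting cell list summed to 12216 CPM, the counts scaled to 1000000 reads per capture, against 32.1 to 908 in the other P60 captures and 37.9 to 367 at P120. Its neutrophil list summed to 27634 CPM, against 162454 to 250211 in the other P60 captures and 114340 to 205796 at P120. Results that rested on it are given with and without it, or with and without its 2 cells. Of the other marker lists, further precursor genes were positive in 7 P60 cells and 3 P120 cells, monocyte and macrophage genes in 2 P60 cells, T and NK cell genes in 1 P60 cell, further cell cycle genes in 1 P120 cell and sex-linked genes in 1 P60 cell. Lists for hair cells, endothelial cells, dendritic cells, B cells, basophils and mast cells, eosinophils, erythroid cells, platelets, fibroblasts and glia were positive in 0 cells. Among these, the hair cell gene *Ocm*, the endothelial genes *Tek*, *Emcn*, *Esam* and *Egfl7* and the B cell genes *Vpreb1* and *Rag1* had 0 reads. A positive cell needed at least 3 genes at 10 reads, so lists positive in 0 cells could still hold reads. The basophil and mast cell list summed to 74.5 to 2320 CPM at P60 and 1107.5 to 3568 CPM at P120. The endothelial list summed to 733.5 CPM in capture 40, 63.3 CPM in 31 and at most 0.309 CPM at P120.

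The first comparison asked what share of the cells the rule kept at each age. At P60 the members were 31.8% of the cells of 50000 or more reads in capture 40, 55.6% in 9c, 77.8% in 31, 85.7% in 19c and 100% in both 20c and 21c. At P120 they were 35.5% in capture 28, 47.6% in 32, 71.4% in 38 and 100% in 36. The ranges overlapped almost fully. The mean share was 75.1% ± 26.9 at P60 and 63.6% ± 28.5 at P120 (SD over 6 and 4 captures), a difference of P120 minus P60 of -11.5 percentage points (exact two-sided permutation test over captures, p = 0.533, 0.600 after adjustment over the 3 tests of this kind). Within run S059 the difference had the other sign, at 8.84 percentage points (exact permutation p = 0.800), where 2 captures against 4 allow no p below 0.133. The share differed between the run labels inside S059, with 19 members of 58 cells in the cells labelled S059iso1 and 49 of 66 in those labelled S059iso2. These counts pool cells over captures and ages, so label and capture are not told apart in them. Within S059iso2 alone, an alternative added after seeing the data, the difference was -6.70 percentage points (exact permutation p = 1).

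Members did not differ detectably in depth or in the number of genes per cell. The median member had 10 to the power 5.97 ± 0.350 reads at P60 (SD of log10 reads, n = 6) and 10 to the power 5.88 ± 0.0777 at P120 (SD, n = 4; exact permutation p = 0.600). The P60 captures spread far more than the P120 captures, from 5.50 in 9c to 6.48 in 40 against 5.80 to 5.96. Within S059 both P60 captures were deeper than all 4 P120 captures, by a mean of 0.484 on the log10 scale (exact permutation p = 0.133, the smallest possible). With every cell thinned at random to 50000 reads, the median number of genes per cell was 547 in capture 19c, 770 in 20c, 872 in 40, 947 in 21c, 1032 in 9c and 1104 in 31. At P120 it was 574 in capture 38, 649 in 36, 726 in 32 and 1090 in 28. The P60 mean was 879 ± 201 and the P120 mean 760 ± 229 (SD over 6 and 4 captures), and the difference of -119 genes was within the spread of the captures (exact permutation p = 0.410, 0.600 adjusted). The median normalized GFP intensity of the members, in arbitrary units, ranged from 202 to 656 over the P60 captures and from 362 to 742 over the P120 captures.

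**Figure D1:**
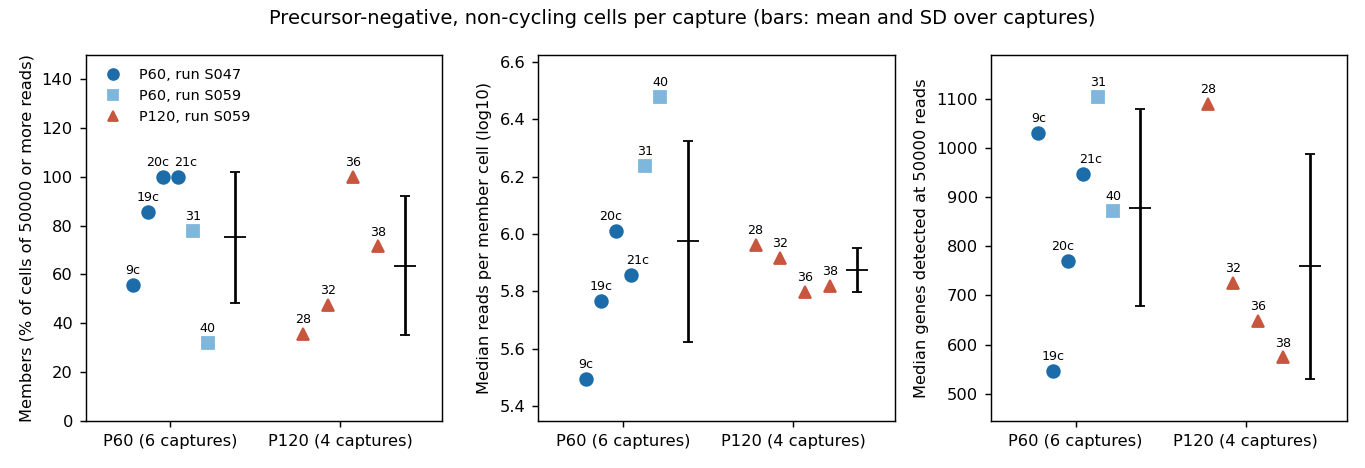
Members per capture. From left to right, the y axes give the members as a percent of the cells of 50000 or more reads, the median log10 reads per member and the median genes per member at 50000 thinned reads; each point is 1 capture, colored by age and run, and the bars are the mean and SD over captures. The P60 and P120 captures overlap in all 3 measures, with mean shares of 75.1% and 63.6%.

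The main comparison asked which genes differed between the ages in these cells. Of the 4087 genes with enough reads to test, 0 were higher and 0 were lower at P120 by the quasi-likelihood test of edgeR after Benjamini-Hochberg correction, so that the share called was 0%, and the smallest adjusted p was 0.659. At an unadjusted p under 0.05 there were 225 genes, 5.51% of those tested. DESeq2, used as the other tool, called 129 genes, of which 25 were higher and the others lower at P120, and had 426 genes at an unadjusted p under 0.05. The direction was even, since 50.2% of the tested genes had a log2 fold change above 0 and the median was 0.01. In summed reads, more cells with a transcript and more reads of it per cell cannot be told apart. Of the 4087 genes, 18 (0.440%) had all 4 P120 captures above all 6 P60 captures and 10 (0.245%) had them all below.

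Single cells carried much of the signal of most genes. In the median tested gene, the cell with the most reads held 51.3% of all P60 reads, and at P120 it held 59.6%. The median standard error of a log2 fold change was 2.31, and it was under 1 for 82 genes (2.01%), so that a count of 0 does not show that the ages were alike. *S100a9* had the smallest standard error, at a log2 fold change of -0.21 ± 0.40 (SE), and the actin gene *Actb* had 0.91 ± 0.50.

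By the naming rule, the 8 genes with the smallest p in each direction among genes read in at least 25% of the cells of the higher age are described, with their adjusted p from edgeR between 0.659 and 0.825. None passed the edgeR test, whereas DESeq2 called *Gpr35*, *Focad*, *Atp13a3*, *Rnf6*, *Ctcf*, *Serp1*, *Ighm* and *Rack1* at an adjusted p under 0.05. Of those with higher estimates at P120, only *6720469O03Rik* and *Serp1* were read in more than 40% of the P120 cells. *6720469O03Rik*, a transcript of unsettled coding status on the minus strand of GRCm38 chr7:37365430-37366630 with no annotated gene overlapping it, had 1429, 1083, 6407 and 4600 CPM in captures 28, 32, 36 and 38. At P60 it had a lowest value of 141, a median of 477 and a highest of 1288 CPM. The ages overlapped only through captures 20c at P60 and 32 at P120. At least 1 read was found in 46 of 47 P120 cells and 33 of 49 P60 cells, which became 70.2% and 49% of cells at 50000 thinned reads. Its log2 fold change was 2.78 ± 0.91 (SE), and 3.51 within run S059.

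*Serp1*, an endoplasmic reticulum protein linked to the stress response of secretory cells, had 165, 2253, 493 and 372 CPM at P120 in the same order of captures. At P60 it ranged from 11.4 to 105.8 CPM with a median of 41, so the ages did not overlap. It was read in 33 of 47 and 25 of 49 cells, but 1 P120 cell held 65.3% of the P120 reads. The log2 fold change was 4.22 ± 1.43 (SE), and 4.2 within S059. Its gene, on the minus strand of chr3:58519817-58525892, overlaps the first bases of *Eif2a* on the other strand, and the sources used here do not state that reads were counted by strand.

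The remaining 6 were read in 12 to 16 of the 47 P120 cells, with 10 or more reads in only 4 to 6. *Gpr35*, a G protein-coupled receptor, had 0, 32.1, 199 and 1320 CPM at P120, and at P60 2.23 CPM in capture 31 and 0 in the other 5. *Lemd3*, which encodes a protein of the inner nuclear membrane, had 1261 CPM in capture 28 and 0.0990, 54.9 and 7.06 CPM in the other P120 captures, with 97.1% of the P120 reads in 1 cell. *Rnf6*, a ubiquitin ligase, had 472, 0, 1103 and 97.6 CPM at P120 and up to 17.7 CPM at P60. These 3 overlapped between the ages because 1 P120 capture was at or near 0. *Focad*, *Atp13a3*, a transporter of the P-type ATPases, and *Ctcf*, the insulator protein, did not overlap. They had 6.98 to 257, 27.7 to 984 and 4.21 to 83.8 CPM at P120, and at most 0.120, 7.26 and 0.319 CPM at P60. The fraction of their P120 reads in 1 cell was 56.3%, 77% and 81%.

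Of the genes with higher estimates at P60, *Ighm*, the constant region of the immunoglobulin mu heavy chain, had high values in 5 of the 6 P60 captures. It had 172 CPM in capture 9c, 309 in 19c, 825 in 20c, 0.214 in 21c, 50 in 31 and 807 in 40. At P120 it had 0.185, 0, 2.21 and 0.0841 CPM in captures 28, 32, 36 and 38. Capture 21c was thus the only P60 capture within the P120 range. It reached 10 reads in 11 of 49 P60 cells and 1 of 47 P120 cells, and the top P60 cell held 36.7% of its reads. The log2 fold change was -9.18 ± 2.69 (SE; edgeR adjusted p = 0.665), and -9.55 within run S059. The B cell list, whose genes include *Cd79a* and *Cd79b*, summed to at most 9.56 CPM at P60 and 14.6 CPM at P120 and was positive in 0 cells.

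*Igkc*, the constant region of the immunoglobulin kappa light chain, followed the run. It had 85 reads in 20 of the 30 P60 members of run S047, at most 18 in a cell, and 0 reads in the 21 P60 and 47 P120 members of run S059. *Ighg2b*, looked at afterwards because of this, had 60 reads in 20 of the S047 members and 3 reads in all S059 members. In the captures compared *Igkc* was at least 19.8-fold lower at P120, taking 3 reads as the limit that 0 reads over the P120 members allows, but within S059 both ages were at 0. With the run as a covariate the estimate was 0.

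*Tectb*, the tectorial membrane protein beta-tectorin, had 4317 CPM in capture 21c, 0 to 4.84 CPM in the other P60 captures and at most 0.0990 CPM at P120. A single cell, of the pair with supporting cell genes, held 99.5% of its P60 reads. The pooled ratio of P60 to P120 was 7591 (95% exact counting interval 2101 to 62684, from 20215 and 2 reads), which covers counting error only. Without the 2 cells the log2 fold change moved from -13.66 to -6.13, and with the run as a covariate to -0.70. Low counts of *Tectb* also followed the run, with at least 1 read in 29 of 30 S047 members, in 1 of 21 P60 members of S059 and in 2 of 47 P120 members.

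Capture 21c was also the highest capture for *Smim7* (1291 CPM, a small membrane protein), *Rack1* (3854 CPM, a scaffold protein of the ribosome), *Pdia3* (2262 CPM, a disulfide isomerase of the endoplasmic reticulum) and *Rps20* (1164 CPM, a ribosomal protein). Their highest P120 values were 0.0617, 17.4, 4.82 and 0.664 CPM. Without the 2 cells of capture 21c that lacked leukocyte genes, the log2 fold changes moved from -12.98 to -10.04, from -7.35 to -5.32, from -7.67 to -4.46 and from -9.01 to -5.79. *Smim7* had 1 read at P120 in all, which gives a pooled ratio of P60 to P120 of 6664 (95% exact counting interval 1196 to 263261). *Tubb5*, a beta-tubulin, was highest in capture 19c at 1367 CPM and at most 1.35 CPM at P120, with a log2 fold change of -8.62 ± 2.85 (SE). Capture 21c was its only P60 capture within the P120 range. Ribosomal protein genes such as *Rps20* have many near-identical pseudogenes and *Tubb5* has close paralogs, so their counts are uncertain.

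**Figure D2:**
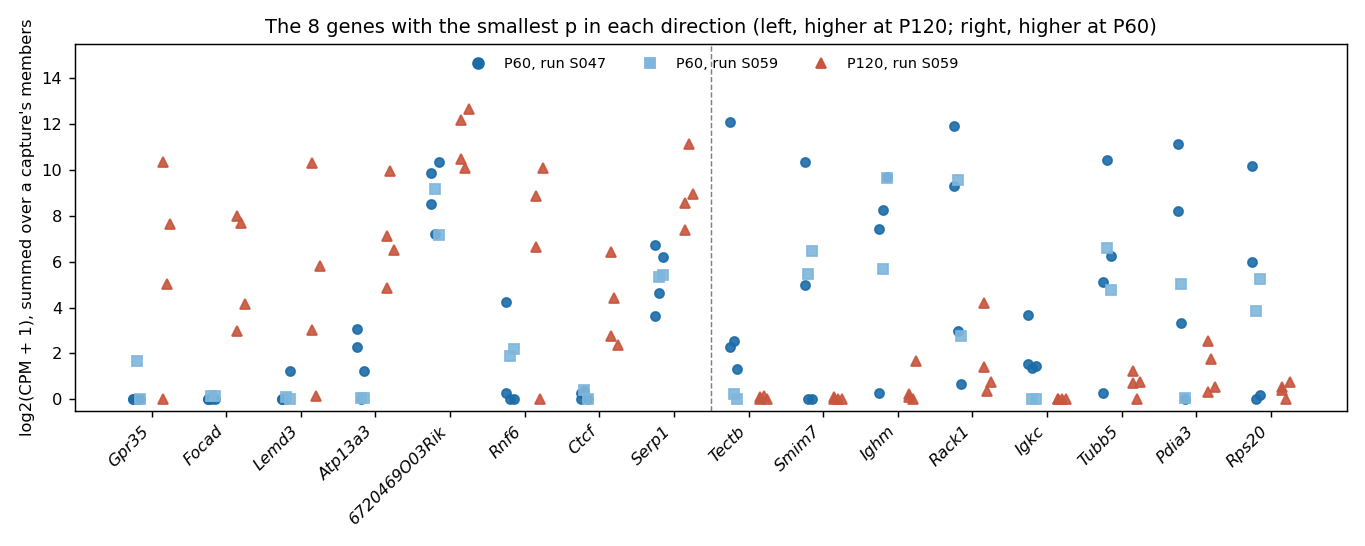
The 16 genes named for their p. The y axis gives log2(CPM + 1) of the reads summed over a capture's members, with a pseudocount of 1; each point is 1 of the 6 P60 or 4 P120 captures, colored by age and run, and the dashed line divides genes with higher estimates at P120 (left) from those at P60 (right). On the left, *6720469O03Rik* and *Serp1* are the genes with reads in all 10 captures, at 141 CPM or more and 11.4 CPM or more.

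Genes whose captures did not overlap were singled out after their values were seen. *Rock1*, a kinase that acts on actomyosin, had 718 to 1567 CPM at P120 against 15.3 to 343 CPM at P60, a log2 fold change of 3.05 ± 1.28 (SE). *Slc11a1*, a metal ion transporter of phagocyte vesicles, had 19.1 to 814 CPM against 0 to 9.24 CPM. In the other direction, *Map1lc3b*, an autophagosome protein, had 847 to 2185 CPM at P60 against 314 to 725 CPM at P120, at -1.44 ± 1.02 (SE). These 3 genes were picked from the 18 and 10 without a rule, and others of them, such as *Bud31*, had a smaller p. Of the 210 ways to divide the captures, 1 puts all 4 P120 captures above and 1 puts them all below. The shares of 0.440% and 0.245% of tested genes were no larger than 1 in 210, and none passed the adjusted test of edgeR.

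Earlier results on all cells of the series had put *Il6*, *Pex6*, *Gpr35*, *Rnf6* and *Gm37465* forward as higher at P120, and *Cdan1*, *Uimc1*, *Ssbp1*, *Rpl28* and *Upf1* as higher at P60. *Il6*, the cytokine interleukin 6, was almost absent from the members. They had 5 reads of it in 4 of 49 P60 cells and 17 reads in 8 of 47 P120 cells, with at most 5 in a cell. The other cells of 50000 or more reads, which were precursor-positive or cycling, had 3 reads in 29 P60 cells but 82679 reads in 37 P120 cells, of which 10 reached 10 reads. By capture, the members stood at 0.494, 0, 0.775 and 0.168 CPM in 28, 32, 36 and 38, and the other cells at 421 CPM in 28, 2910 in 32 and 234 in 38, while capture 36 had no other cell. *Il6* had too few reads in the members to be tested. When the rule was dropped and all cells of 50000 or more reads were summed, its log2 fold change was 11.48 ± 2.33 (SE; edgeR adjusted p = 0.00682).

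*Gpr35* had 17823 P120 reads in the members, 87.8% of them in 1 cell, and 9 in the other P120 cells. *Pex6*, a peroxisomal ATPase, had 7234 reads in the P120 members, of which 7058 were in 1 cell. *Gm37465* had 299 reads in 11 P120 members and 0 at P60. Of the 5 genes put forward at P60, *Uimc1*, *Rpl28* and *Upf1* could be tested in the members, with log2 fold changes of 2.24 ± 2.44, -2.06 ± 2.32 and 0.29 ± 2.35 (SE). None of these 3 differences was larger than its standard error. When the rule was dropped, *Uimc1*, *Ssbp1* and *Upf1* had log2 fold changes of 1.614, 0.5021 and 0.6483, in the direction of P120. *Cdan1* and *Rpl28* had -2.550 and -1.006 in that fit, and all 5 estimates were smaller than their standard errors. *Cdan1* had 256 reads in the members at P60, 254 of them in 1 cell, and *Ssbp1* had 26 reads at P60 and 474 at P120.

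**Figure D3:**
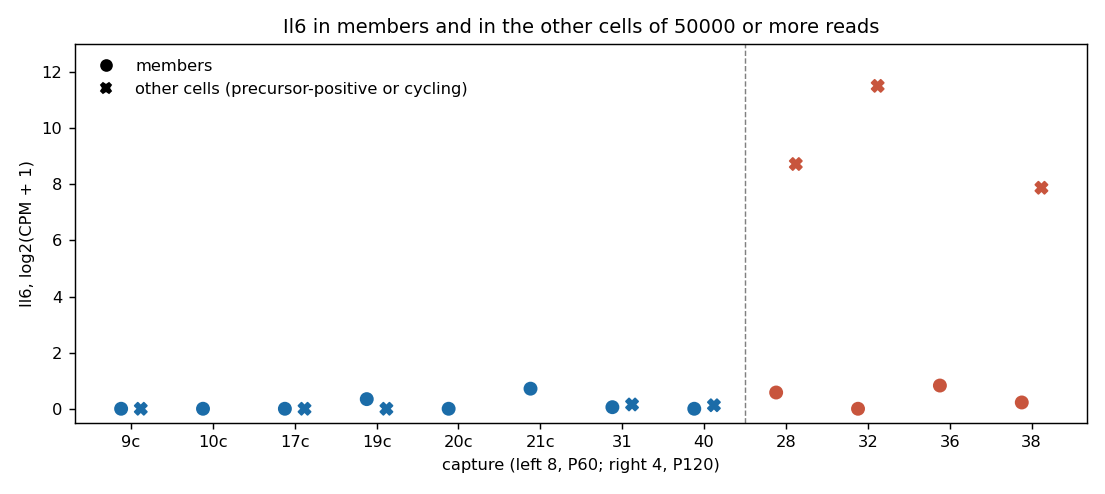
*Il6* in members and other cells. The y axis gives log2(CPM + 1) of *Il6*, summed over the members (circles) or over the other cells of 50000 or more reads (crosses) of each capture on the x axis; captures without other cells have no cross. Members stay below 1 CPM in every capture, and the other cells of the P120 captures 28, 32 and 38 reach 421, 2910 and 234 CPM.

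The genes of the neutrophil program were described by lists chosen with earlier results of these data known. No gene of the 23 lists passed the adjusted test of edgeR. The lists are given by their counts and medians against the 50.2% and 0.01 of all tested genes. Within run S059 this background was itself shifted, with 2284 of 4038 of these genes higher at P120 and a median of 0.35. Of the 10 specific granule genes, 7 had higher estimates at P120, with a median log2 fold change of 0.34 that was -0.77 within run S059. *Ngp*, a granule protein related to cathelicidins, had 35742, 26769, 3341 and 13306 CPM in captures 28, 32, 36 and 38, and a lowest of 12.4, a median of 21374 and a highest of 57858 CPM at P60. It varied more within each age than between them, at -0.33 ± 0.89 (SE). *Camp*, the cathelicidin antimicrobial peptide, ranged from 2.14 to 13677 CPM at P60 and from 158 to 12923 CPM at P120. *Lcn2*, which binds bacterial siderophores, ranged from 42.2 to 9093 and from 2388 to 9022 CPM. The summed specific granule list spread from 4440 CPM in 21c and 4775 CPM in 20c to 99282 CPM in 40 at P60, and from 13848 CPM in 36 to 76324 CPM in 28 at P120.

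The gelatinase granule and late neutrophil genes were more even across captures. Of 14 tested, 7 had higher estimates at P120, and the median was 0.22 (0.30 within S059). *Retnlg*, a resistin-like secreted protein, had 26933, 3449, 24927 and 18461 CPM at P120 and a median of 15064 CPM at P60, with 0.51 ± 0.59 (SE). *Il1r2*, the decoy receptor of interleukin 1, had -0.03 ± 0.80, and the chemokine *Ccl6* had 0.60 ± 0.76. All 3 ranges overlapped between the ages.

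All 6 tested S100 genes had lower estimates at P120, with a median of -0.69, which was -0.92 without capture 21c and -0.58 within run S059, where 1 of 6 was higher. *S100a8* and *S100a9* encode the calcium-binding subunits of calprotectin. *S100a9* had 68319, 37408, 72878 and 44558 CPM at P120, and 15565, 77774 and 92929 CPM as lowest, median and highest at P60. *S100a8* had a P60 median of 49838 CPM and 27206 to 51477 CPM at P120, at -0.44 ± 0.43 (SE). *S100a11* had -0.94 ± 0.79. The lowest P60 value of both calprotectin genes was that of capture 21c, and none of the 3 differences passed the test. *S100a4* had 0 reads.

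In the NADPH oxidase list, the enzyme complex that makes superoxide, 2 of 6 genes had higher estimates at P120 and the median was -0.16 (-0.60 within S059). *Ncf1*, its cytosolic organizer, was singled out after its values were seen as the only one at an unadjusted p under 0.05, with 535, 2502, 2226 and 277 CPM at P120 and 6.85 to 581 CPM at P60, a log2 fold change of 2.57 ± 1.21 (SE). *Rac2* and *Cybb* had -0.05 ± 0.78 and -0.42 ± 1.20 (SE).

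Among signalling molecules, the interleukin 1 and inflammasome list had 5 of 8 higher estimates at P120 and a median of 0.66 (0.21 within S059). *Il1b* had 10261, 6862 and 10346 CPM in captures 32, 36 and 38 but 318 CPM in 28, and at P60 it had a lowest of 35.9, a median of 6063 and a highest of 12474 CPM. The estimate was 0.35 ± 0.85 (SE). *Il1rn*, which encodes the receptor antagonist, had -0.52 ± 1.41, and the sensor *Nlrp3* had 0.96 ± 1.46. Of the cytokines and chemokines, 4 of 7 were higher, with a median of 0.28 (1.63 within S059). *Cxcl2*, a neutrophil attractant, had -0.72 ± 0.83, *Ccl3* had 1.23 ± 1.06 and *Ccl4* had 0.28 ± 1.23, and *Il12b* had 0 reads. Within S059 all 3 of these chemokine genes had positive estimates, at 1.63, 2.56 and 1.69, and capture 40 was the lowest P60 capture for *Cxcl2* and *Ccl3*.

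The NF-kB list had 3 of 8 higher estimates at P120, with a median of -0.45 that was 1.06 within run S059. Its inhibitor *Nfkbia* had -0.68 ± 0.93, the related *Nfkbiz* had -0.21 ± 0.89 and the ubiquitin editor *Tnfaip3* had -1.07 ± 1.17 (SE). *Rela*, a subunit of the factor, was singled out after its values were seen as the only one at an unadjusted p under 0.05, with up to 1867 CPM in capture 20c at P60 and at most 5.86 CPM at P120.

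The genes that receive the interleukin 6 signal had 2 of 7 higher estimates at P120 and a median of -0.59 (-1.24 within S059). *Jak1*, a kinase bound to cytokine receptors, was the most regular of them. It had 400, 397, 44.9 and 179 CPM at P120, and at P60 843 CPM as the lowest, 1207 as the median and 1753 as the highest value, with no overlap. At least 1 read was found in 87.8% of P60 and 66% of P120 cells, and in 77.6% and 46.8% after thinning. The log2 fold change of *Jak1* was -2.26 ± 1.14 (SE; edgeR adjusted p = 0.885), and -2.58 within S059, whose captures are among those already compared. *Pim1*, a kinase induced by STAT factors, had 1.43 ± 0.81, and *Stat3* itself had -0.59 ± 1.59.

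The immediate early and dissociation stress list had the largest share of higher estimates at P120 among the lists of 10 or more tested genes, 12 of 15, with a median of 0.99. The median was 0.84 without capture 21c, 0.89 without its 2 cells and 1.11 after thinning, and within run S059 14 of 15 were higher with a median of 0.90, against the 0.35 of all genes there. The summed list ranged from 7025 CPM in capture 40 and 10666 CPM in 21c to 24814 CPM in 19c at P60, and from 20972 to 24773 CPM at P120. The P120 captures thus lay inside the upper part of the P60 range. Within S059 the 2 P60 captures lay far apart, at 7025 CPM in 40 and 23569 CPM in 31, the latter inside the P120 range. *Fos* had 5444, 6401, 1214 and 3221 CPM at P120 and 370, 2518 and 3096 CPM as lowest, median and highest at P60, at 1.21 ± 0.79 (SE). *Btg2* and *Dusp1* had 0.42 ± 0.68 and -0.09 ± 0.70. *Nr4a1*, an orphan nuclear receptor, was singled out after its values were seen as the only one at an unadjusted p under 0.05. It had 171, 268, 543 and 649 CPM at P120 against 0 to 114 CPM at P60, with no overlap, a log2 fold change of 3.71 ± 1.80 (SE) and an edgeR adjusted p of 0.878.

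**Figure D4:**
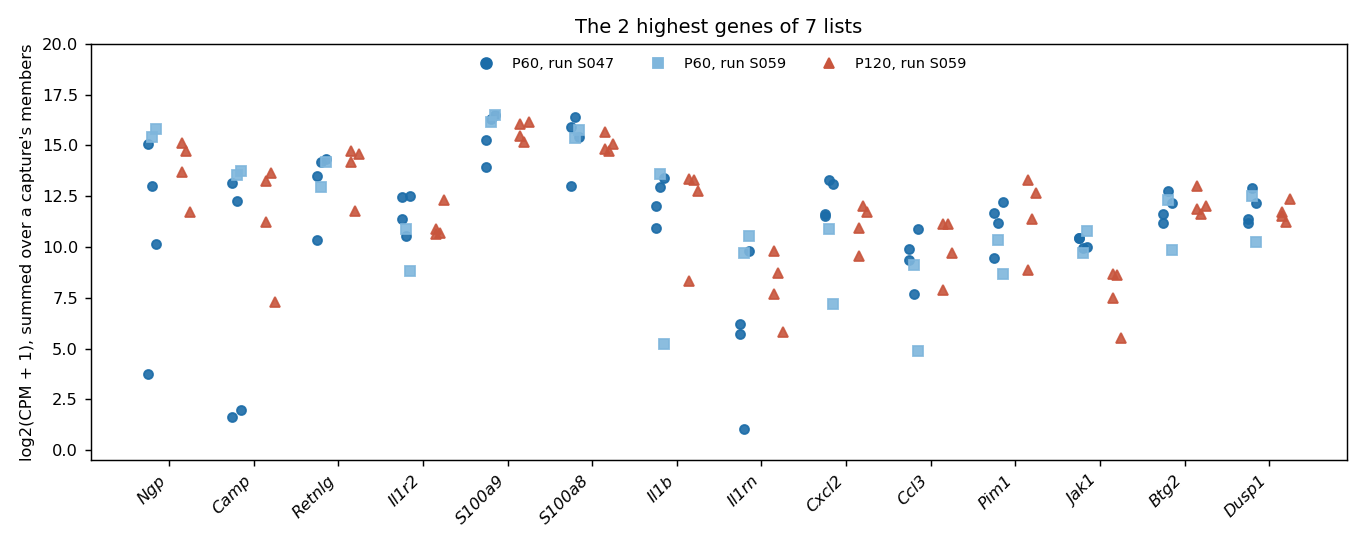
Genes of the neutrophil program by capture. The y axis gives log2(CPM + 1) of the reads summed over a capture's members for the 2 genes with the highest mean CPM in each of 7 lists; each point is 1 capture, colored by age and run. *Jak1* is the only one of these genes whose 4 P120 points (44.9 to 400 CPM) all lie below the 6 P60 points (843 to 1753 CPM).

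Genes of ageing, survival and antigen presentation had no common direction. Of the genes that mark neutrophil ageing in the circulation, 6 of 7 had higher estimates at P120, with a median of 0.56 that was -0.25 within S059. *Cxcr4*, the receptor that retains and recalls neutrophils to the marrow, had 0.59 ± 1.21, and *Cd24a*, a surface glycoprotein, had 0.49 ± 1.11. The 7th, *Tlr4*, was at an unadjusted p of 0.0281 with up to 1392 CPM in capture 20c at P60 and at most 5.74 CPM at P120. The senescence and cell cycle arrest list had 4 of 8 higher and a median of -0.14 (0.00 within S059), and *Cdkn2a* and *Cdkn2b* had 0 reads. *Gadd45a*, a growth arrest gene, had 667, 232, 3189 and 1141 CPM at P120 and 5.78 to 621 CPM at P60, at 2.22 ± 1.17 (SE). *Cdkn1b* had 0.72 ± 1.62 and *Lmnb1* had -1.43 ± 1.72. In the BCL2 family and caspase list 5 of 8 were higher, with a median of 0.66 (1.84 within S059); *Mcl1*, which keeps neutrophils alive, had 0.77 ± 0.87, *Cflar* 0.92 ± 1.91 and *Bid* -3.62 ± 2.63.

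MHC class I genes had 3 of 6 higher estimates and a median of 0.20 (0.19 within S059), with *H2-D1* at 0.47 ± 0.75, *B2m* at -0.06 ± 0.81 and *H2-K1* at 0.69 ± 1.52. No MHC class II gene had enough reads to be tested, and *H2-Ab1*, *H2-DMa* and *Ciita* had 0 reads. *Cd74* reached 70.8 CPM in 1 P60 capture and 34 CPM in capture 32. *H2-Eb1* and *H2-DMb1* reached 55.6 and 8.40 CPM at P60 and at most 0.0617 CPM at P120. The interferon-induced list had 3 of 7 higher and a median of -0.56. Within S059, where more of its genes were tested, it had 6 of 11 and 0.37, near the 0.35 of all genes there. *Ifitm3* was at 0.64 ± 1.35, *Ifitm2* at 0.64 ± 1.79 and *Ifitm1* at 0.00 ± 2.20. The heat shock list had 3 of 5 higher and a median of 0.54, but 1 of 5 and -0.62 within S059, with the co-chaperone *Dnaja1* at 0.74 ± 1.11 and the chaperones *Hspa8* and *Hsp90ab1* at -0.58 ± 1.31 and -0.94 ± 1.64.

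Genes of translation and respiration had mostly lower estimates at P120. In the ribosomal and mitochondrial genome lists this rested largely on capture 21c, and thinning also turned the mitochondrial genome list positive. Of 75 ribosomal protein genes tested, 8 were higher at P120 and the median was -1.16. Without capture 21c the median was -0.18, without only its 2 cells it was -0.45 with 27 of 74 genes higher, and within run S059 45 of 79 were higher with a median of 0.19, against the 0.35 of all genes there. After thinning, with capture 21c kept, the median was -0.88 and 16 of 61 were higher. Capture 21c held 43834 CPM of this list, against 5273 to 17415 CPM in the other P60 captures and 5236 to 7844 CPM at P120. *Rps9*, *Rps27* and *Rpl9* had -0.94 ± 0.98, -1.16 ± 1.15 and -0.49 ± 1.29 (SE). *Rps14* was singled out because its captures did not overlap, with 259 to 610 CPM at P60 and 0.775 to 203 CPM at P120.

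The 10 tested genes of the mitochondrial genome all had lower estimates at P120, with a median of -1.80. Without the 2 cells of capture 21c the median was 0.20 and 5 of 10 were higher, and within S059 it was 0.44. After thinning, with capture 21c kept, the median was 1.015 and 7 of 8 tested genes were higher. Capture 21c held 49661 CPM of this list and 9c held 15942 CPM, whereas the other P60 captures held 98.7 to 2578 CPM and the P120 captures 288 to 7899 CPM. *mt-Cytb*, *mt-Co1* and *mt-Nd1* had -2.06 ± 1.28, -1.32 ± 1.19 and -1.69 ± 1.59 (SE). After thinning their estimates were -1.86, 0.70 and 1.20. Of the nuclear genes of the respiratory chain, 16 of 54 were higher at P120, with a median of -0.82 that was -0.46 without the 2 cells and -0.37 within S059. *Ndufa13*, *Cox8a* and *Cox6a1* had -2.61 ± 1.62, -2.78 ± 1.69 and -0.17 ± 1.55. *Ndufa7* was singled out for its lack of overlap, at 113 to 639 CPM at P60 and 0.679 to 26.6 CPM at P120.

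Of the proteasome genes 8 of 22 had higher estimates and the median was -0.76 (-0.66 within S059), with *Psma7* at -1.95 ± 2.03, *Psma2* at -1.73 ± 2.23 and the immunoproteasome subunit *Psmb9* at 4.31 ± 2.27 (SE). *Psmc1*, singled out at an unadjusted p of 0.0133, had 0 to 194 CPM at P60 and at most 0.247 CPM at P120. The glycolysis list had 9 of 15 higher and a median of 0.20, but 3 of 15 and -0.65 within S059 and 2 of 10 and -0.38 after thinning, with *Aldoa*, *Pkm* and *Gpi1* at -0.26 ± 1.0, 0.54 ± 1.09 and 0.25 ± 1.18. The mRNA surveillance list had 3 of 6 higher and a median of 0.08 (-0.35 within S059), with *Smg1* and *Upf3b* at -0.13 ± 2.40 and -5.81 ± 3.17. The 13 genes taken from the study's own panels, a list chosen on these samples and so no independent evidence, had 8 higher and a median of 0.55 (0.06 within S059), with *Lcp1*, *Myh9* and *S100a6* at 0.91 ± 0.73, 0.07 ± 0.88 and -0.30 ± 1.05.

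**Figure D5:**
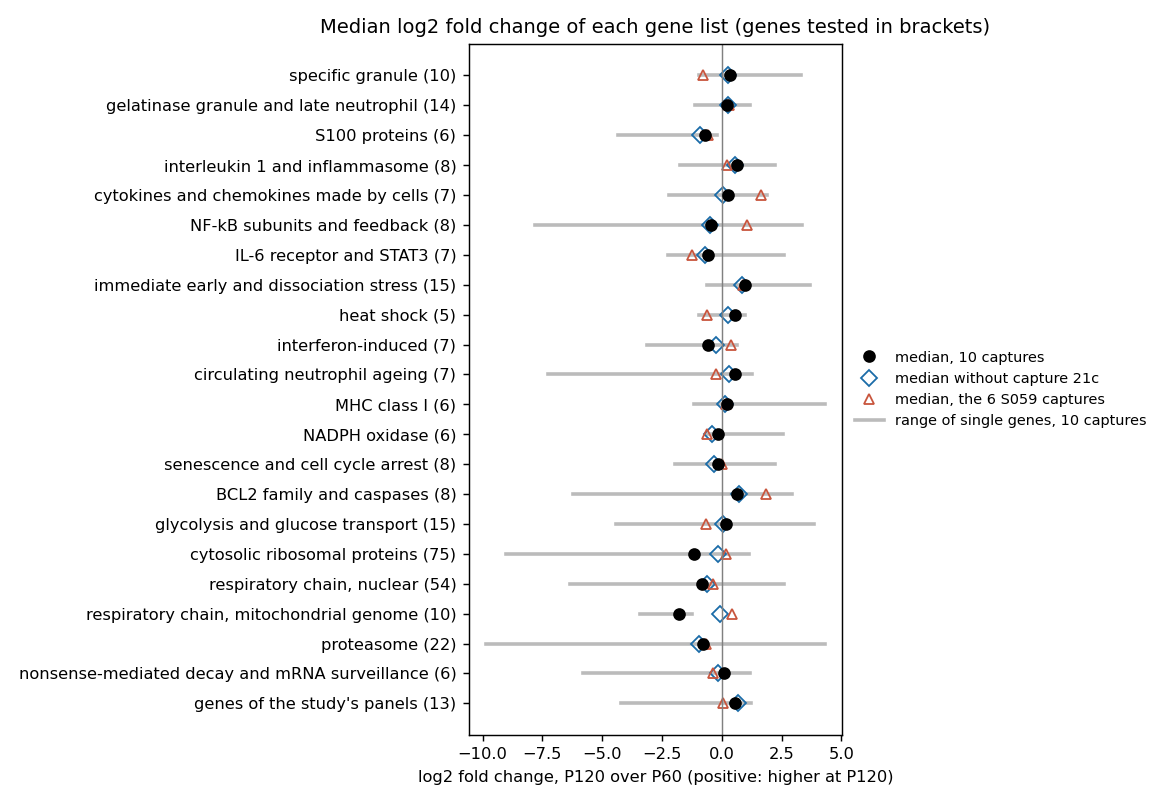
Gene lists between the ages. The x axis gives the log2 fold change of P120 over P60 in edgeR, with positive values higher at P120; filled circles are the median of each list over the 10 captures, open diamonds the median without capture 21c, open triangles the median in the 6 captures of run S059, and grey bars the range of single genes. The ribosomal and mitochondrial genome lists move from -1.16 to -0.18 and from -1.80 to -0.06 without capture 21c. The immediate early list has 0.99, 0.84 and 0.90, where all tested genes have medians of 0.01, 0.12 and 0.35.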

How the data were processed

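Per the paper's methods and the labels, the authors aligned the reads of each C1 library with STAR to the mouse genome (mm10, GRCm38) and counted reads on genes. The deposited table holds raw read counts without normalization or molecular identifiers, and the authors also deposited each cell's age, capture, run and a normalized GFP intensity, a score whose scaling is not given in the sources used here. The authors had removed cells with endothelial transcripts and outliers before deposit.

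Spike-in rows were dropped, and 48349 of 48709 gene identifiers were matched to symbols. Members were selected by the rule in the report, and the members, gene lists and tests were chosen with earlier results of these data known. Counts were summed per capture (3 or more members) and tested with edgeR 4.0.16 in R 4.3.3, using TMM scaling, the filterByExpr filter and the quasi-likelihood F test, and p-values were corrected by Benjamini-Hochberg with a threshold of 0.05. No covariate entered this fit. CPM values are a capture's summed reads scaled to 1000000, without TMM. Standard errors are the absolute log2 fold change divided by the root of F. DESeq2 1.42.0 was the other tool. For single values, captures were permuted exactly (two-sided, scipy 1.17.1). Cells were thinned to 50000 reads at random. Scripts were tested on simulated data. Genes named are any called (up to 12 per direction), filled to 8 per direction by the smallest p, the 3 members of each list with the highest mean CPM, *Il6* and *Tectb*; a few genes so named are not reported here. Intervals cover counting error only, since reads without molecular identifiers are not independent molecules. No doublet caller was run, and sorting used scatter to discard doublets. Positions are from GENCODE vM21 on GRCm38. Python 3.11.15, pandas 2.3.3, numpy 2.4.6 and matplotlib 3.10.9 were used.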

Additional observations from a re-analysis of the deposited data

Results flagged for a closer look

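Of 83 checks for a capture far from the others of its age, 10 found one, and chance alone flags about 1 in 20. Values here are log2(CPM + 1) of a capture's members, each set against the nearest other capture of the same age. Capture 21c was lowest for the S100 list at P60, at 14.74 against 16.67, and highest for *Tectb*, at 12.08 against 2.54. Capture 28 was lowest at P120 for the interleukin 1 and inflammasome list, at 9.66 against 13.14, and for the genes of the study's panels, at 13.03 against 13.48. Capture 19c was lowest at P60 for the heat shock list, at 6.60 against 10.70. Capture 32 was highest at P120 for MHC class II, at 5.13 against 0.17. The others were single genes with few reads: *Gpr35* in capture 31 (1.69 against 0), *Lemd3* in 20c (1.21 against 0.11), *Smim7* in 28 (0.086 against 0) and *Ighm* in 36 (1.68 against 0.25).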

How the results depend on the processing

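The counts were also 0 genes higher and 0 genes lower at P120 with RLE size factors, robust fitting, thinned cells, the run as a covariate, run S059 alone, captures of 5 or more members (the same captures), a rule that allowed no precursor or cycling gene, members of 200000 or more reads and each capture left out in turn. The same counts came from 2 fits added after seeing the data, run S059iso2 alone and the members with leukocyte genes. With a median standard error of 2.31 these counts say nothing of stability. DESeq2 called 129 genes, 0.612% of those tested as higher (25 genes) and 2.54% as lower, with 739 genes left without an adjusted p. All cells of 50000 or more reads gave 2 (*Il6*, *Pex6*) and 2 (*Tectb*, *Fcrl1*) of 8551, 0.0234% each, and dropping the filter gave 1 (*Tnfrsf26*, 0.00474%) and 3 (*Dkk3*, *Foxq1*, *Slc39a4*, 0.0142%) of 21086. RLE size factors moved the median of all genes from 0.01 to -0.26. List medians fell by unequal amounts, from 0.34 to 0.17 for the specific granule list and from -1.16 to -1.76 for the ribosomal list. The immediate early list fell from 0.99 to 0.66, with 11 of 15 genes higher.

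The difference in member share was 8.84 percentage points within S059, -6.70 within S059iso2 alone and -23.6 to -2.13 with a capture left out. That in genes per cell was 2.71 on all reads and -229 to -57 with a capture left out. That in log10 reads was -0.484 within S059 and -0.195 to 0.00170 with a capture left out, the last without capture 40. Of the 16 genes named by p, 14 kept their sign in every alternative that tested them. *Igkc* went to 0 with the run as a covariate and *Tubb5* to 1.01 in all cells of 50000 or more reads. These 16 genes were chosen by their p in the same captures, so a kept sign is no separate support. *Tectb*, *Smim7*, *Igkc* and *Rps20* were not tested in the fit without capture 21c. Of 66 list genes, 45 changed sign in at least 1 alternative. Causes were not tested. The single cells that hold much of a gene's reads and the 6 and 4 captures limit what these data can show.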
